A study of Mus musculus with 12 samples.

Results

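Pdgfrb, Dcn, Tcf21, Ngfr and Erg are genes used to mark the supporting cells of organs, and they were taken by name, 5 of the 13581 genes listed. Pdgfrb marks pericytes and other mural cells around small vessels, Dcn and Tcf21 mark fibroblasts, Ngfr marks stellate cells of the liver, and Erg marks endothelial cells. What was measured was not their RNA but 5-hydroxymethylcytosine (5hmC) on their DNA. Each gene had a level over its promoter window and one over its gene body in every library, given as FPKM, the reads of a region scaled to its length and to the library's depth.

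Tet enzymes make 5hmC by oxidising 5-methylcytosine. The mark is common over the bodies of genes that a differentiated tissue transcribes, and its pattern differs between cell types. Pdgfrb is the receptor tyrosine kinase through which PDGF-B from endothelium recruits pericytes, and it is also found on stellate cells and fibroblasts. Ngfr is the low-affinity neurotrophin receptor. Dcn encodes decorin, a small leucine-rich proteoglycan that coats collagen fibrils. Tcf21 is a basic helix-loop-helix factor of the epicardium and of the fibroblasts that come from it, and Erg is an ETS factor that keeps endothelial identity. Heart and liver both hold vessels and connective tissue beside their main cells. Which cells of either organ use each of these genes was not measured. In bulk DNA, fewer cells of a type and less 5hmC per cell cannot be told apart.

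The tissues were heart and liver of C57BL6/j mice, taken as whole tissue. Organs were snap frozen from embryos at day 14 of gestation (E14), pups 1 to 2 days old (P1), and 8-week adults (W8). The cell line was EB5, mouse embryonic stem cells (ESC) of 129/Ola background grown with LIF. There were 2 libraries each of P1 heart, W8 heart, P1 liver, W8 liver and ESC, and 1 each of E14 heart and E14 liver, 12 in all. E14 and W8 libraries were read from 1 end at 50 bp, and P1 and ESC libraries from both ends at 75 bp. Read format therefore cannot be told apart from age between W8 and P1, nor strain from cell type between tissue and ESC. Whether replicates were separate animals or cultures is not stated in the labels, and the p-values then reflect only the spread among these samples, part of which may be technical.

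Depth ranged from 604012 to 5761636 reads over gene bodies in 11 libraries, whose median gene body held 19 to 207 reads. W8 heart replicate 2 had 142778 reads and a median of 5.04 reads per body, so calls of the 5 genes and counts of lists that use W8 heart are also given without it where they change. The tissue labels were checked against defining markers. The summed gene-body level of 10 cardiomyocyte genes was 37.1 FPKM in E14 heart, 16.4 to 18.7 in P1 heart and 17.8 to 25.9 in W8 heart, against 7.52 in E14 liver, 8.19 to 8.50 in P1 liver and 5.43 to 6.29 in W8 liver. The sum over 11 hepatocyte genes was 3.27 FPKM in E14 heart, 4.90 to 4.99 in P1 heart and 4.16 to 9.82 in W8 heart, against 5.56 in E14 liver, 13.7 to 14.4 in P1 liver and 17.4 to 18.3 in W8 liver. Both sums ordered hearts and livers as labelled at each age. The sum over 8 pluripotency genes did not set ESC apart. It was 7.38 to 7.93 FPKM in ESC, against 7.92 to 9.49 in P1 heart and 6.95 to 7.51 in P1 liver.

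5hmC is made only on methylated cytosine, which in these tissues sits chiefly in CpG, so the starts of the genes are shown with their CpG in capitals. The RefSeq promoter table (GRCm38.p6) matched 3 of the 5 genes, Tcf21, Ngfr and Erg, and not Pdgfrb and Dcn. Each sequence runs 5′ to 3′ on the gene's strand, from 250 bases before to 50 bases after its start. They lie at chr10:22820094-22820393 for Tcf21, chr11:95587649-95587948 for Ngfr and chr16:95586544-95586843 for Erg, each on the minus strand.
Tcf21: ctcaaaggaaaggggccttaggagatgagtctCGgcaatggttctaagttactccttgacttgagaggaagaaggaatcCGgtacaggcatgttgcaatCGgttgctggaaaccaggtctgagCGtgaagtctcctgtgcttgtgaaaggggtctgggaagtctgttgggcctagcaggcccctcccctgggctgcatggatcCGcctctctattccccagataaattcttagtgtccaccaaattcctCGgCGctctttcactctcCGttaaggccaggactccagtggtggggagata
Ngfr: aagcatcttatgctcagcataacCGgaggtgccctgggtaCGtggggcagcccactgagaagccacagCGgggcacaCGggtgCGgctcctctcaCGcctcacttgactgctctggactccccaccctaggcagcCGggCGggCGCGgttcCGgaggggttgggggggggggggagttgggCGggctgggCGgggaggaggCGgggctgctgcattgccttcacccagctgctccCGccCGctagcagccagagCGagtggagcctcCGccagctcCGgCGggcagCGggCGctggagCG
Erg: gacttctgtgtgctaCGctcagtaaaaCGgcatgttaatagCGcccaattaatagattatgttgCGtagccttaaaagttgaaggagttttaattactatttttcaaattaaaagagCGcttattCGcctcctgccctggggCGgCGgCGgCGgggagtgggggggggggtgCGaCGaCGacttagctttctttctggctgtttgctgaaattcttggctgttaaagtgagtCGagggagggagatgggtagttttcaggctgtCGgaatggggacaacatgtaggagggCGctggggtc
The motif counted was CG, which reads the same on both strands. It occurred 23 times in the Ngfr promoter, a number that 21.5% of the 32851 promoters in the table reach. The Erg promoter held 16, reached by 33.0%. The Tcf21 promoter held 8, reached by 48.6%, next to a median of 7. At least 1 CG stood in 94.6% of promoters.

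The 5 genes differ greatly in length, which sets how many reads stand behind each value. Coordinates are the deposited ones in mm9, with each start shifted to the first base of its region. Chromosomes come from RefSeq, and strand from the side of the body on which the promoter window lay. The promoter window was 4000 bp and, by the gene lengths in RefSeq, centred on the start, and the body was the rest of the gene, exons and introns together. The body of Erg spanned chr16:95580776-95806200 on the minus strand, 225.4 kb, longer than all but a few percent of bodies. The body of Pdgfrb lay at chr18:61206804-61244715 on the plus strand (37.9 kb), that of Dcn at chr10:96944245-96980761 on the plus strand (36.5 kb) and that of Ngfr at chr11:95430132-95447049 on the minus strand (16.9 kb). The body of Tcf21, at chr10:22537085-22537934 on the minus strand, was only 850 bp, shorter than all but 0.399% of bodies.

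Among the receptors, Pdgfrb had a moderate level in every library. Over its body it had 0.589 FPKM in E14 heart, 1.33 and 1.36 in P1 heart, and 0.984 and 0.886 in W8 heart. The livers had 0.648 FPKM at E14, 1.80 and 1.74 at P1, and 0.570 and 0.540 at W8, and ESC had 1.29 and 1.18. P1 liver was highest and W8 liver lowest. Neighbouring groups did not overlap in the order of means (P1 liver, P1 heart, ESC, W8 heart, E14 liver, E14 heart, W8 liver). How often this holds over all gene bodies was not counted, and the E14 groups, of 1 library each, show no spread. Exact Poisson intervals, which cover counting error only, did overlap between some libraries of every neighbouring pair. Among these was 0.505 to 0.682 FPKM in E14 heart against 0.492 to 0.657 and 0.461 to 0.629 in W8 liver. The levels of Pdgfrb rest on 56 to 382 reads, except 11 in W8 heart replicate 2. Against the median gene of its own library the body stood at 0.742 and 0.693 in W8 liver and at 1.86 and 1.91 in P1 liver, below the median gene at W8 and above it at P1.

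Ngfr, the neurotrophin receptor, had its highest level in the stem cells. Its body had 0.643 FPKM in E14 heart, 1.11 and 1.42 in P1 heart, and 0.968 and 1.26 in W8 heart. In liver the level was 0.678 FPKM at E14, 1.05 and 0.913 at P1, and 0.299 and 0.248 at W8, and in ESC 2.55 and 2.16. Both ESC libraries lay above all 10 tissue libraries, and both W8 liver libraries lay below all others. Relative to the median gene it stood at 1.58 and 2.11 in the W8 hearts, 0.390 and 0.318 in the W8 livers, and 2.79 and 2.47 in ESC. P1 heart, W8 heart and P1 liver followed ESC in the order of means, and each of these 3 overlapped its neighbour.

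Dcn, the proteoglycan gene, was the weakest of the 4 longer bodies and lay below the median gene in all 12 libraries. Its body had 0.359 FPKM in E14 heart, 0.237 and 0.252 in P1 heart, and 0.286 and 0.253 in W8 heart. In liver it had 0.289 FPKM at E14, 0.287 and 0.262 at P1, and 0.175 and 0.186 at W8, and in ESC 0.0543 and 0.111. The 2 ESC libraries were lowest, with 4 and 16 reads, and 0.716% and 1.87% of the bodies in those libraries had a lower level. In the order of means P1 liver and W8 heart overlapped as neighbours, and the E14 groups, of 1 library each, show no spread.

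Of the transcription factors, Erg has the most reads and so the tightest counting error. Its body had 0.803 FPKM in E14 heart, 1.00 and 0.810 in P1 heart, and 0.793 and 0.653 in W8 heart. Liver libraries had 0.498 FPKM at E14, 0.884 and 0.829 at P1, and 0.338 and 0.348 at W8, and ESC had 0.658 and 0.601. W8 liver was lowest and stood apart from the rest, while P1 heart overlapped P1 liver, and W8 heart overlapped ESC. The counts were 1299 and 48 reads in the W8 hearts and 677 and 635 in the W8 livers, so the exact Poisson 95% interval was 0.752 to 0.839 FPKM in W8 heart replicate 1 and 0.481 to 0.866 in replicate 2, against 0.313 to 0.364 and 0.321 to 0.376 in W8 liver. Such intervals cover counting error only, since reads carry no molecular identifiers.

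Tcf21 was nearly unread over its short body in the tissues after birth. It had 0 reads in E14 heart, 0 in both P1 hearts, and 1 and 0 in W8 heart. In liver it had 16 reads at E14 (1.22 FPKM), 0 in both P1 libraries, and 1 and 0 at W8. ESC had 3 and 11 reads (1.75 and 3.27 FPKM), above all 10 tissue libraries. Counts of 0 do not show absence at this depth: the exact Poisson upper bound was 3.41 and 4.00 FPKM in P1 heart and 4.55 and 1.22 in P1 liver, and it reached 13.3 in W8 heart replicate 2.

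**Figure D1:**
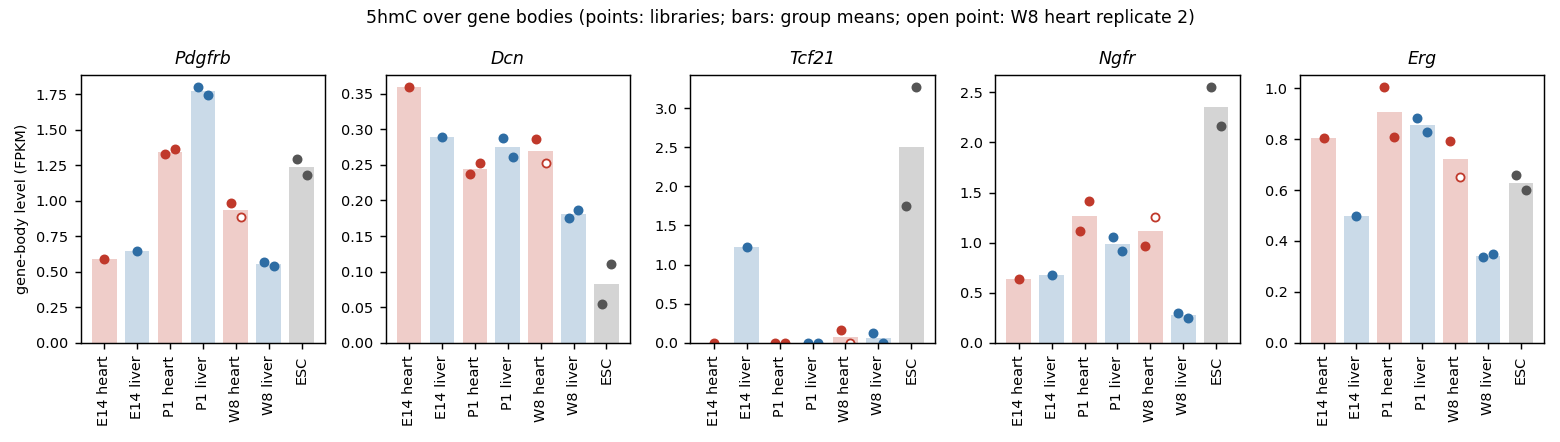
Gene-body 5hmC level in FPKM (vertical axis, a separate scale for each gene) of Pdgfrb, Dcn, Tcf21, Ngfr and Erg in the 7 groups, heart in red, liver in blue and ESC in grey. Points are libraries, bars are group means and the open point is W8 heart replicate 2. Pdgfrb, Ngfr and Erg are lowest in W8 liver, at 0.540 to 0.570, 0.248 to 0.299 and 0.338 to 0.348 FPKM, and Dcn is lowest in ESC.

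**Figure D2:**
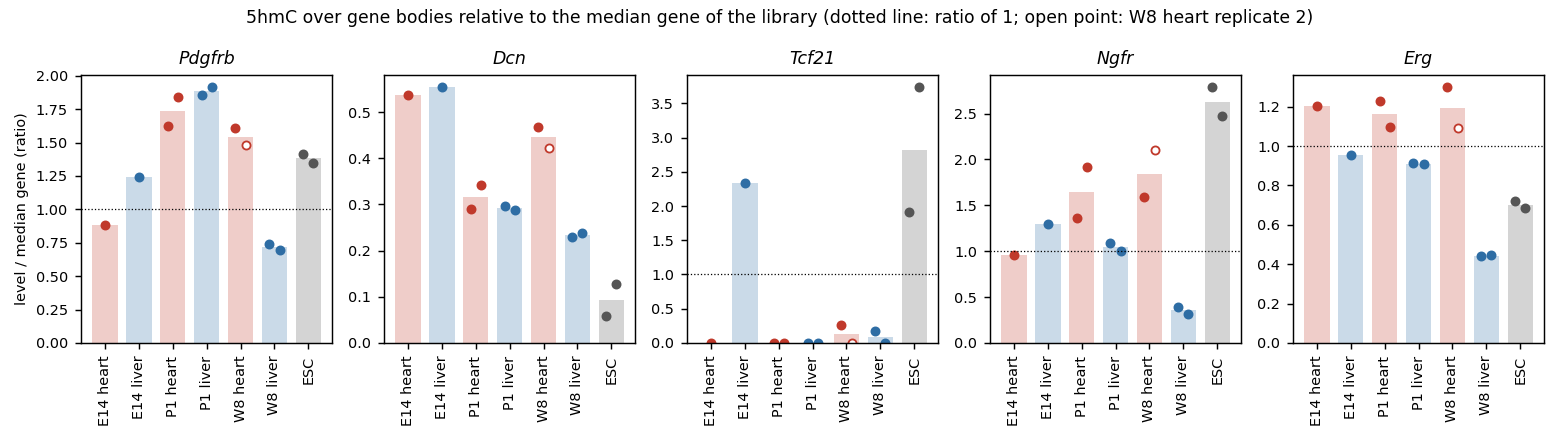
The same gene bodies as a ratio to the median gene of the same library (vertical axis), with a dotted line at 1. In W8 liver Pdgfrb, Ngfr and Erg are below the line, at 0.693 to 0.742, 0.318 to 0.390 and 0.440 to 0.447, while in W8 heart they are above it, at 1.48 to 1.61, 1.58 to 2.11 and 1.09 to 1.30. Dcn is below it in every library.

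The first comparison was heart against liver in the adult, with a call at an adjusted p under 0.05. It was made on the log2(FPKM + 0.0746) scale, which understates changes between low levels above 0. All 4 genes whose bodies could be read had both W8 hearts above both W8 livers, and 3 of them passed the test. Ngfr differed most: 0.968 and 1.26 FPKM in the W8 hearts against 0.299 and 0.248 in W8 liver, a log2 difference of 1.77 ± 0.20 (SE; limma with Benjamini-Hochberg adjustment over 13484 genes, adjusted p = 0.00438). That difference was larger than for 99.3% of gene bodies. Erg was higher by 0.93 ± 0.17 (limma, adjusted p = 0.0107) and Pdgfrb by 0.68 ± 0.13 (limma, adjusted p = 0.0124). Dcn, which averaged 0.270 ± 0.023 FPKM over the W8 hearts and 0.181 ± 0.007 over the W8 livers (SD, n = 2 each), differed by 0.43 ± 0.21 and did not pass (limma, adjusted p = 0.147). Tcf21 had 1 read in each tissue and no fold is given.

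Background calls were many in this comparison. Of all gene bodies 9.49% were called higher in W8 heart and 21.3% lower, and both hearts lay above both livers in 21.7%, so 3 of 4 called and 4 of 4 without overlap are to be read against these shares. These are 1280 bodies higher and 2871 lower, a split that median centring of each library moved to 2212 higher and 1357 lower. The median gene was 0.32 lower in heart on the log2 scale. With each library centred on its median the differences were 2.08 for Ngfr, 1.25 for Erg, 1.00 for Pdgfrb and 0.75 for Dcn, and Dcn then also passed (limma, adjusted p = 0.0443). The 3 calls held without W8 heart replicate 2 (limma, adjusted p of 0.0043 for Ngfr, 0.00664 for Erg and 0.00803 for Pdgfrb), and all 3 were lost without W8 liver replicate 1 (0.0553 to 0.0851), without W8 liver replicate 2 (0.0615 to 0.105) and when only W8 heart and W8 liver were fitted (0.0891 to 0.106). In each of these 3 fits 0 of all gene bodies were called.

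In newborns the same contrast gave no call. Pdgfrb had 1.33 and 1.36 FPKM in P1 heart against 1.80 and 1.74 in P1 liver, so the livers were the higher pair, with a log2 difference of -0.38 ± 0.13 (limma, adjusted p = 0.140). Without W8 heart replicate 1 or 2, libraries that here enter only the estimate of the spread, this difference was called. Many more of all gene bodies were called in those fits too. With median centring the Pdgfrb difference was -0.13. Dcn also had both hearts below both livers, by -0.13 ± 0.21 (limma, adjusted p = 0.729), and centring turned this to 0.12. Ngfr had both hearts above both livers, with a difference of 0.33 ± 0.20 (limma, adjusted p = 0.338). Erg overlapped between the tissues, at 0.07 ± 0.17 (limma, adjusted p = 0.827). Of all gene bodies 2.28% were called at P1 in either direction, 0.349% higher and 1.93% lower in heart (47 and 260 bodies, 95 and 52 after centring). Both P1 hearts lay below both P1 livers in 44.0% of bodies and above them in 17.6%, and the median gene was 0.23 lower in heart.

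At E14 there was 1 library per tissue and no replicate check. Erg had 1436 reads in E14 heart and 1744 in E14 liver, a ratio of 1.61 between levels (95% counting interval 1.5 to 1.73). The ratio was 1.24 for Dcn (0.962 to 1.60), 0.946 for Ngfr (0.723 to 1.23) and 0.908 for Pdgfrb (0.755 to 1.09), whose intervals include equal levels. On the log2 scale these are 0.62 for Erg, 0.25 for Dcn, -0.07 for Ngfr and -0.12 for Pdgfrb, beside a median of 0.25 over all genes. Tcf21 had 0 reads in E14 heart and 16 in E14 liver, which against a floor of 3 reads in the heart library, with the liver value taken as exact, is at least 2.74-fold lower in heart. With the counting error of both libraries the upper 95% bound of the ratio was 0.508.

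Whether the tissue difference changed between birth and adulthood was tested as an interaction. The W8 difference exceeded the P1 difference by 1.43 ± 0.28 for Ngfr (limma, adjusted p = 0.102), 1.06 ± 0.19 for Pdgfrb (limma, adjusted p = 0.0953), 0.86 ± 0.24 for Erg (limma, adjusted p = 0.145) and 0.56 ± 0.29 for Dcn (limma, adjusted p = 0.337). None of the 4 passed, in a test in which 0.0148% of all gene bodies did. The larger differences at W8 are thus not shown to differ from those at P1. With W8 heart replicate 1 left out, Ngfr, Pdgfrb and Erg passed. W8 heart then rested on replicate 2 alone, the library with the fewest reads. Many more of all gene bodies passed in that fit, so the share above does not apply to it.

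**Figure D3:**
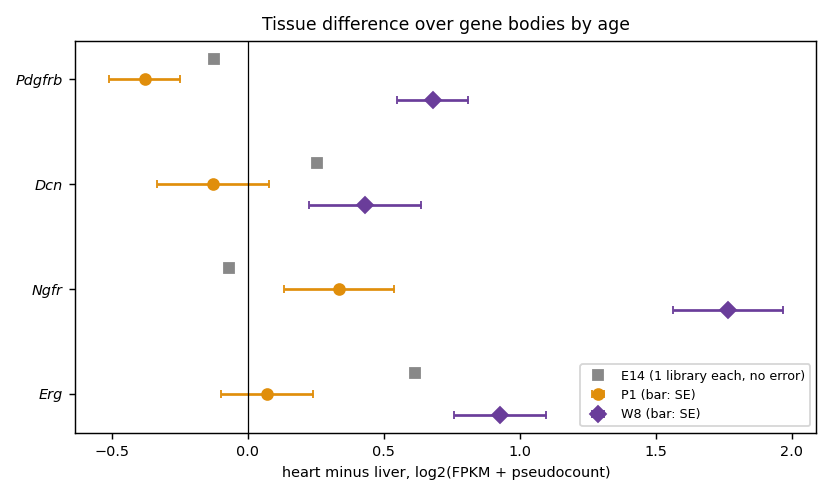
Heart minus liver in log2(FPKM + pseudocount) over the gene body (horizontal axis) for Pdgfrb, Dcn, Ngfr and Erg at E14 (grey squares, 1 library per tissue), P1 (orange circles) and W8 (purple diamonds), with SE bars from limma at P1 and W8. The W8 values, 0.68, 0.43, 1.77 and 0.93 from top to bottom, lie to the right of the P1 values, -0.38, -0.13, 0.33 and 0.07.

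The age comparison within liver gave the lowest levels of Pdgfrb, Ngfr and Erg in the series. Pdgfrb averaged 0.555 ± 0.021 FPKM in W8 liver and 1.77 ± 0.04 in P1 liver (SD, n = 2 each), a log2 difference of -1.55 ± 0.13 (limma, adjusted p = 0.00915). Ngfr averaged 0.274 ± 0.037 FPKM in W8 liver and 0.984 ± 0.099 in P1 liver and fell by 1.60 ± 0.20 (limma, adjusted p = 0.0103). Erg averaged 0.343 ± 0.007 FPKM in W8 liver and 0.856 ± 0.039 in P1 liver and fell by 1.16 ± 0.17 (limma, adjusted p = 0.0130). Dcn differed by -0.45 ± 0.21 and did not pass (limma, adjusted p = 0.220).

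So 3 of 4 members were lower in W8 liver, in a comparison where read format goes with age and 8.91% of all gene bodies were called lower and 0.934% higher (1201 and 126 bodies, 484 and 289 after centring). Both W8 liver libraries lay below the other 10 libraries for Pdgfrb, Ngfr and Erg, as they did for 12.6% of all bodies, and below the other 8 tissue libraries for these and Dcn, as for 13.2%. After median centring the 3 calls stood at -1.29 for Pdgfrb, -1.35 for Ngfr and -0.90 for Erg (limma, adjusted p of 0.0160, 0.0237 and 0.0247 in that order). All 3 calls ended without W8 liver replicate 1, W8 liver replicate 2 or P1 liver replicate 1 (limma, adjusted p from 0.0930 to 0.129), when 0 of all gene bodies were called, and that of Erg also without P1 liver replicate 2 (0.0558).

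W8 liver was also set against E14 liver, which shares its read format. Ngfr fell by 1.12 ± 0.25, at 0.299 and 0.248 FPKM in W8 liver against 0.678 in E14 liver (limma, adjusted p = 0.0252). Tcf21 had 1 read over both W8 livers and 16 in E14 liver, a ratio of 0.0571 with a 95% counting interval of 0.00136 to 0.368, and it passed as lower (limma, adjusted p = 0.0288). Pdgfrb, Erg and Dcn differed by -0.20, -0.46 and -0.51 and did not pass (limma, adjusted p = 0.402, 0.154 and 0.184). When only these groups were fitted, Erg and Dcn passed, but so did most of all gene bodies. The shares that follow are those of the fit to all 12 libraries. Of all gene bodies 2.83% were called lower and 17.9% higher (381 and 2414 bodies, 1174 and 467 after centring), and the median gene was 0.47 higher in W8 liver. Centred on that median, Pdgfrb and Erg differed by -0.71 and -0.96 and were called (limma, adjusted p = 0.0348 and 0.0214). The E14 library has no replicate and was taken to vary like the other groups. Without W8 liver replicate 1 or 2 the calls of Ngfr (limma, adjusted p = 0.102 and 0.127) and Tcf21 (0.0987 and 0.124) were lost, and Tcf21 also lost its call without ESC replicate 2, without either P1 liver library (0.0501 to 0.0519) and with a pseudocount of the median divided by 100 (0.126).

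In heart none of the members changed with age by the same test. W8 heart against P1 heart gave -0.49 ± 0.13 for Pdgfrb, -0.30 ± 0.17 for Erg, -0.17 ± 0.20 for Ngfr and 0.11 ± 0.21 for Dcn, with limma adjusted p from 0.149 to 0.759. Centring turned Ngfr to 0.15 and Erg to 0.03. Without W8 heart replicate 1 Pdgfrb was called against P1 heart, at -0.56, in a fit that called many more of all gene bodies. In the reported fit calls were few over all genes too, 0.0148% of bodies, so a count of 0 of 4 carries little. W8 heart against E14 heart gave 0.60 ± 0.16 for Pdgfrb, 0.72 ± 0.25 for Ngfr, -0.14 ± 0.21 for Erg and -0.33 ± 0.25 for Dcn, with no call among the members or among all genes (0% by limma, with 1638 of 13484 bodies at an unadjusted p under 0.05). Without W8 heart replicate 1 Pdgfrb and Ngfr passed there, at 0.53 and 0.90, in a fit that also called many of all gene bodies.

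Against the stem cells the members moved in different directions. Dcn was higher in P1 heart, 0.237 and 0.252 FPKM against 0.0543 and 0.111 in ESC, by 1.05 ± 0.21 (limma, adjusted p = 0.0256), and in P1 liver by 1.17 ± 0.21 (limma, adjusted p = 0.0155). Its ESC value rests on 20 reads over 2 libraries. Ngfr was lower than in ESC by 0.86 in P1 heart (-0.86 ± 0.20; limma, adjusted p = 0.0379) and by 1.20 in P1 liver (-1.20 ± 0.20; limma, adjusted p = 0.0144). The Ngfr call in P1 heart was lost with median centring (limma, adjusted p = 0.0734).

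Tcf21 had 0 reads in both P1 tissues and 14 in ESC. With a floor of 3 reads over each P1 group and the ESC mean taken as exact, it was at least 1.68-fold lower in P1 heart. In P1 liver it was at least 3.21-fold lower. These folds were not tested. The log2 difference on the pseudocount scale, -5.05 in both tissues, was called (limma, adjusted p = 0.0125 in P1 heart and 0.00886 in P1 liver). With the counting error of both groups the upper 95% bound of the ratio to ESC was 0.764 for P1 heart and 0.399 for P1 liver. In single libraries the P1 heart bounds given above, 3.41 and 4.00 FPKM, lie above both ESC values. Pdgfrb was higher in P1 liver by 0.49 ± 0.13 (limma, adjusted p = 0.0464; 0.0662 after median centring) and did not pass in P1 heart, at 0.11 ± 0.13 (limma, adjusted p = 0.588). Erg did not pass, at 0.47 ± 0.17 in P1 heart (limma, adjusted p = 0.107, and 0.0271 with median centring, at 0.66) and 0.40 ± 0.17 in P1 liver (limma, adjusted p = 0.151). Without W8 heart replicate 2 Erg was called in P1 heart, in a fit that called more of all gene bodies.

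In P1 heart 1 member was called higher and 2 lower, where 5.60% and 7.10% of all bodies were (755 and 958, or 1521 and 669 after centring); in P1 liver 2 were called higher and 2 lower, where 10.4% and 5.05% were. Both ESC libraries lay above the 10 tissue libraries for Tcf21 and Ngfr, as for 16.9% of bodies, and below them for Dcn, as for 4.43%. The 2 comparisons share the ESC libraries. Without either ESC library all 7 of these calls were lost, in fits that called few or none of all gene bodies. Leaving out a P1 library of the tissue compared also ended these calls, except Tcf21 without P1 heart replicate 1 and without P1 liver replicate 2. Without a P1 library of the other tissue, or a W8 liver library, the calls of Ngfr in P1 heart and Pdgfrb in P1 liver were lost. That of Dcn in P1 heart was lost without a W8 liver library. Each of these fits called fewer of all gene bodies than the reported fit.

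Promoter windows held few reads and gave no call for any member. In W8 heart replicate 2 all 5 windows had 0 reads, where 46.1% of all windows did and 1 read is worth 0.756 FPKM. Pdgfrb had 0.884 FPKM in E14 heart, 2.16 and 0.692 in P1 heart, and 0.753 and 0 in W8 heart. In liver it had 0.466 at E14, 0.262 and 2.11 at P1, and 0.675 and 0.463 at W8, and in ESC 2.98 and 2.84. Both ESC libraries lay above the 10 tissue libraries, as for 10.4% of all windows, while the P1 libraries spread so widely that the tissues overlapped. The window of Erg was likewise highest in ESC: 0.409 FPKM in E14 heart, 0 and 0.461 in P1 heart and 0.583 and 0 in W8 heart, against 0.403 in E14 liver, 0 and 0.843 in P1 liver and 0.140 and 0.309 in W8 liver, with 1.98 and 1.51 in ESC.

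Tcf21 could be read in its promoter where its body could not. Its window had 0.345 FPKM in E14 heart (11 reads), 1.18 and 0.692 in P1 heart (6 and 3 reads), and 0.138 and 0 in W8 heart (4 and 0 reads). Its window in liver had 0.450 FPKM at E14 (28 reads), 0.262 and 0.281 at P1 (1 and 4 reads), and 0.0840 and 0.123 at W8 (3 and 4 reads), and ESC had 1.12 and 1.70 (9 and 27 reads). The P1 hearts lay above the P1 livers without overlap, as for 9.81% of all windows, and the log2 difference of 1.51 ± 0.94 did not pass (limma over 13504 windows, adjusted p = 0.642). ESC overlapped P1 heart.

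The windows of Ngfr and Dcn showed no group apart from the rest. Ngfr ranged from 0 to 1.20 FPKM, with 0.992 and 1.20 in ESC beside 1.05 in P1 liver replicate 1, a value of 4 reads. Dcn ranged from 0 to 0.785 FPKM, with at most 29 reads. Between heart and liver the lowest adjusted p by limma over promoters was 0.642 at P1 (Tcf21) and 0.500 at W8 (Pdgfrb). Against ESC the lowest by limma was 0.363 in P1 heart (Erg) and 0.261 in P1 liver (Tcf21). Without W8 heart replicate 2 Tcf21 passed in P1 liver against ESC, as did many more of all windows. In the reported fits calls were rare over all windows: 0.00741% in each of the heart and liver contrasts, 0.0741% in P1 heart against ESC and 0.163% in P1 liver against ESC. In W8 heart against W8 liver all 5 differences were below 0 with W8 heart replicate 2 and above 0 without it. No direction is therefore given there. Without W8 heart replicate 1 Pdgfrb passed as lower, at -3.13 with W8 heart at 0, in a fit that called many of all windows.

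**Figure D4:**
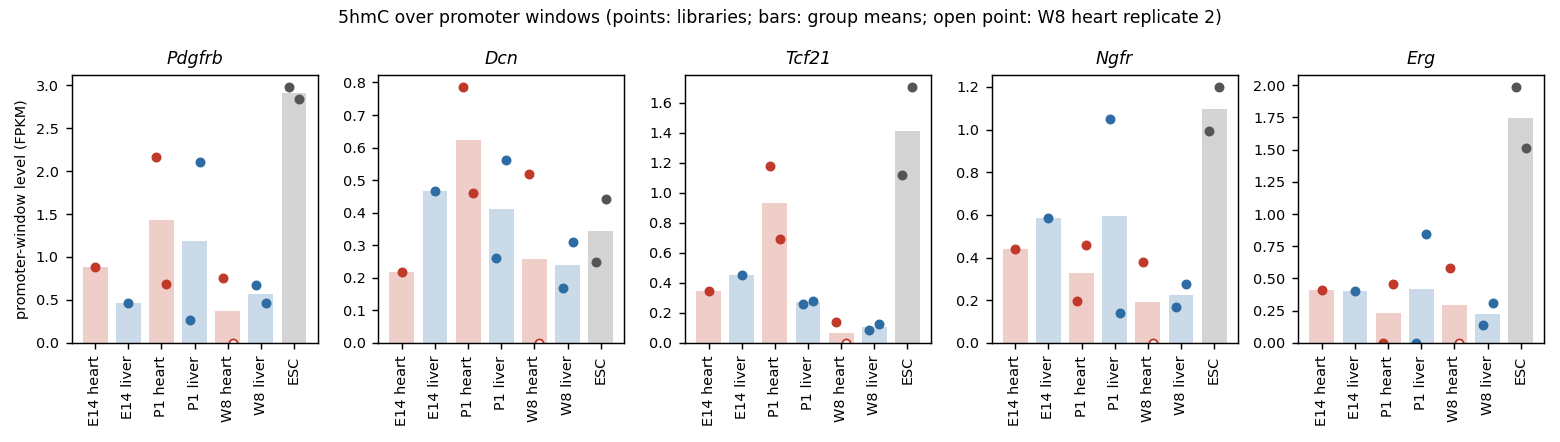
Promoter-window 5hmC level in FPKM (vertical axis, a separate scale for each gene) of the 5 genes, drawn as for the gene bodies. Pdgfrb and Erg are highest in ESC, at 2.84 to 2.98 and 1.51 to 1.98 FPKM, replicates of P1 tissues lie far apart, and all 5 open points are at 0.

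The genes around the members were followed through lists of the same cell types and pathways. In W8 heart against W8 liver, 8 of 22 endothelial genes were higher and 0 lower, where 9.49% of all bodies were higher and 21.3% lower, with a median log2 difference of 0.31 beside -0.32 for all genes. Besides Erg these included Cdh5, the cadherin of endothelial junctions (1.11 ± 0.19; limma, adjusted p = 0.00867), and Kdr, the main VEGF receptor (1.19 ± 0.26). Emcn, a sialomucin of the endothelial surface, and Fli1, the ETS factor closest to Erg, were higher by 0.94 ± 0.18 and 0.92 ± 0.18. Pecam1, an adhesion molecule of the same cells, was at -0.18 ± 0.16 and did not pass. At P1 0 of the 22 passed in either direction (median 0.02, all genes -0.23). Without W8 heart replicate 2 some passed in each direction, but many more of all gene bodies were then called too, mostly lower in heart.

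Among 16 pericyte and mural genes at W8, 4 were higher and 1 lower in heart, with a median of 0.41. Higher were Pdgfrb, Des (desmin, 1.67 ± 0.41), Tbx18 (a T-box factor of mural and epicardial cells, 1.54 ± 0.41) and Cspg4 (the NG2 proteoglycan, 1.03 ± 0.29), and lower was Anpep (an aminopeptidase, -1.09 ± 0.15). Des is also on the stellate list and is counted there again. Which cells carried the signal of these genes, mural cells or the main cells of the tissue, was not tested. Of 21 fibroblast and epicardial genes 10 were higher and 1 lower, with a median of 0.62. They included the collagens Col1a1 (1.75 ± 0.19), Col5a1 (1.61 ± 0.18) and Col3a1 (1.46 ± 0.22), while Fn1, fibronectin, which hepatocytes also secrete, was lower (-1.68 ± 0.17). Of 16 hepatic stellate genes 5 were higher in W8 heart and 0 lower, with a median of 0.58, among them Ngfr, Pth1r (1.33 ± 0.29) and Ncam1 (1.25 ± 0.24). No gene of this list, named for a cell of the liver, passed as higher in W8 liver. The W8 calls of these lists and of the endothelial list fell to 0 without W8 liver replicate 1 or 2, and the 11 fibroblast calls to 7 without either ESC library. Without W8 heart replicate 2 the counts higher and lower at W8 were 9 and 0 for endothelial, 5 and 1 for pericyte, 11 and 1 for fibroblast and 5 and 0 for stellate genes. Median centring gave 10 and 0, 6 and 1, 13 and 1, and 7 and 0 for the same lists.

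At P1 the only call in these 3 lists was Fn1, lower in heart, and with median centring that call was lost and 1 stellate gene was called higher. Without W8 heart replicate 2 each of these lists had P1 calls in both directions, in the same fit that called many more of all gene bodies. At E14, without a test, 66.5% of all bodies were higher in heart than in liver. So were 18 of 22 endothelial, 13 of 16 pericyte, 18 of 21 fibroblast and 10 of 16 stellate genes, and 7 of 8 pluripotency genes. The E14 medians of these 5 lists were 0.74, 0.65, 0.33, 0.16 and 0.67, beside 0.25 for all genes.

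Markers of the main cells moved with the same contrasts. At W8, 8 of 10 cardiomyocyte genes were higher in heart and 0 lower (median 1.81), and 9 of 11 hepatocyte genes were lower and 0 higher (median -2.06). At P1 there were 3 cardiomyocyte genes higher and 5 hepatocyte genes lower, with none called the other way, and 3 and 3 with median centring. Without W8 heart replicate 2 more genes of both lists were called, as were many more of all gene bodies. The medians of 4 lists of other cells were also above that of all genes at W8. Macrophage genes had 1 of 10 higher and 0 lower (median 0.05), erythroid and haematopoietic genes 1 of 9 and 0 (0.41), pluripotency genes 2 of 8 and 0 (0.33), and the 8 neuronal genes had no call (0.50). Leaving out W8 heart replicate 2 gave 2 macrophage and 2 neuronal genes higher, and median centring gave 3 erythroid and 2 neuronal genes. The summed level of the endothelial list was 17.1 to 17.6 FPKM in W8 heart against 14.9 to 15.1 in W8 liver, and that of the stellate list 12.1 to 12.9 against 7.22 to 7.49. The fibroblast sum was 10.3 to 13.6 FPKM in W8 heart against 8.35 to 8.61 in W8 liver, while the pericyte sums overlapped, at 10.9 to 15.2 against 10.6 to 11.7. Among the families, the ETS sums also overlapped, at 14.6 to 19.2 FPKM in W8 heart against 16.3 to 17.9 in W8 liver, and the proteoglycan sum was lower in heart, at 4.13 to 5.71 against 7.95 to 8.50. The part of cell composition in the differences of Pdgfrb, Ngfr and Erg was not tested.

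**Figure D5:**
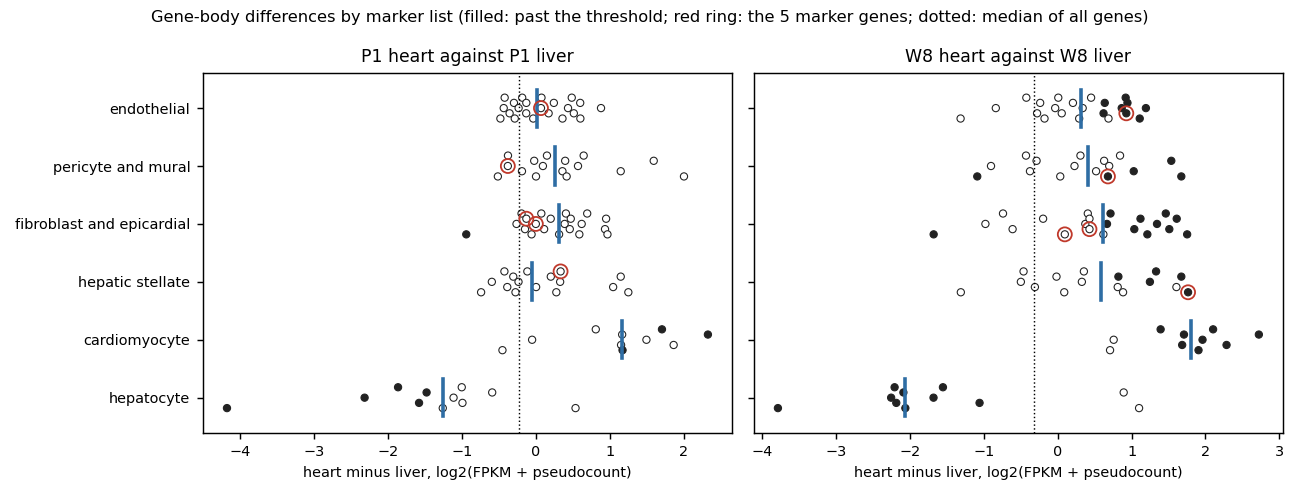
Heart minus liver in log2(FPKM + pseudocount) over gene bodies (horizontal axis) at P1 (left) and W8 (right) for 6 lists of marker genes (vertical axis). Points are genes, filled where limma's adjusted p is under 0.05, red rings are the 5 marker genes, blue lines are list medians and the dotted line is the median of all genes. At W8 the medians of the endothelial, pericyte, fibroblast and stellate lists, 0.31 to 0.62, lie between those of the cardiomyocyte list, 1.81, and the hepatocyte list, -2.06.

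The families of the members were counted in W8 heart against W8 liver, where 9.49% of all bodies were higher and 21.3% lower. Of 6 PDGF ligands and receptors 3 were higher in W8 heart and 0 lower: Pdgfrb and the ligands Pdgfd (0.92 ± 0.16) and Pdgfb (1.05 ± 0.32), with a median of 0.65. The sister receptor Pdgfra was at 0.62 ± 0.20 (limma, adjusted p = 0.0517). Of 9 neurotrophin receptors and ligands, Ngfr and the receptor Ntrk3 (0.86 ± 0.17) were higher and the ligand Bdnf lower (-1.08 ± 0.17). When W8 heart replicate 2 was left out, 4 PDGF genes were higher, and 3 neurotrophin genes higher and 1 lower. With median centring there were also 4 PDGF genes higher, and 4 neurotrophin genes higher and 1 lower.

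Of 19 ETS factors 4 were higher and 3 lower, with Elf3 at 2.05 and Etv1 at 1.11 above Erg and Elk4 at -0.90, and a median of 0.05. That split was 6 higher and 1 lower with median centring, and 7 and 4 without W8 heart replicate 2. Among 9 small leucine-rich proteoglycans none was called higher and Chad, chondroadherin, was lower (-1.60 ± 0.27). Of 7 basic helix-loop-helix relatives and partners of Tcf21 only Hand1, a factor of heart development, was called (2.00 ± 0.39). Both of these alternatives gave 1 proteoglycan gene higher and 1 lower, and 2 basic helix-loop-helix genes higher. At P1 these 5 families had 1 call in all, Elk4, lower in heart, and 0 with median centring. Without W8 heart replicate 2 the ETS, PDGF and neurotrophin families each had P1 calls in both directions, where calls over all gene bodies also rose.

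In W8 liver against P1 liver, where 8.91% of all bodies were called lower, so were 7 of 22 endothelial, 2 of 16 pericyte, 4 of 21 fibroblast and 4 of 16 stellate genes, and none was higher. Their medians were -0.55, -0.45, -0.75 and -0.84, beside -0.23 for all genes. With median centring the counts lower fell to 3, 1, 2 and 2, with 1 fibroblast gene higher. Without W8 heart replicate 2 the counts lower rose in each list, as did the calls lower over all gene bodies. Of 19 ETS factors 6 were lower, and 1 of 6 PDGF genes. Lists of other cells also had genes called lower: 2 of 9 erythroid (median -1.13), 2 of 10 macrophage (-0.51), 1 of 10 cardiomyocyte (-0.67), 1 of 8 pluripotency (-0.51) and 1 of 8 neuronal genes (-0.24). Hepatocyte genes had 2 of 11 higher and 0 lower, with a median of 0.45. The counts of the endothelial, pericyte, fibroblast and stellate lists were 0 without W8 liver replicate 1, W8 liver replicate 2 or P1 liver replicate 1.

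Genes with the most similar gene-body pattern were sought over the 11 libraries other than W8 heart replicate 2, by Pearson's r of the log2 levels. For Pdgfrb these were Snx31 (r = 0.987), 8430427H17Rik (0.982) and Ccdc126 (0.977), and for Erg Lrrc49 (0.992), Auts2 (0.983) and Maml2 (0.979). For Ngfr they were Cacna2d2, Gpr133 and Accn4, each at 0.983. For Dcn they included Aqp1 (0.937) and Angpt1 (0.925). An r over 0.9 was reached by 485 genes with Ngfr, 171 with Erg, 114 with Pdgfrb and 4 with Dcn. The body of Tcf21 had 0 or 1 read in 8 of these 11 libraries, so no such genes are given for it. Between members r was 0.74 for Pdgfrb and Erg, 0.73 for Pdgfrb and Ngfr and 0.62 for Ngfr and Erg. Depth and read format differ between these libraries and are common to all genes of a library, and their part in r was not tested. These values are descriptions over 11 libraries of 7 groups.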

How the data were processed

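Genomic DNA was sheared, its 5hmC was tagged with a modified glucose, biotinylated and captured on streptavidin, and captured fragments were sequenced, per the labels' protocols. No unenriched library was used here, so levels are relative and are not shares of cytosines. Reads were aligned to mm9 with Bowtie2, per the submitters' processing notes. Which Bowtie2 version and which read counter were used is not given in the sources used here. The deposited values are FPKM, per the file headers, for the promoter windows and gene bodies of 13581 listed genes. Of these, 23 had no coordinates and 9 a body length of 0 or less, and they were left out.

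The steps between low FPKM values gave whole reads, since 100% of low values came out whole within 0.01 reads, and depth was recovered from them. Single-end libraries had 2 step sizes (ratio 1.03), so their reads are approximate. Poisson intervals were exact at 95%, and a group with no reads got a floor of 3 reads over the group. Counts were not tested, as the FPKM fit was the one chosen.

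Values were log2(FPKM + 0.0746) for bodies and log2(FPKM + 0.0723) for promoters (median non-zero value divided by 10). Changes between low levels above 0 are therefore understated. Where a library had 0 reads and 1 read was worth more than the pseudocount, the log2 difference can overstate the change. The Tcf21 body, at -5.05 in both P1 tissues against ESC, is such a case. Regions with a mean under 0.0809 FPKM (bodies) or 0.0739 (promoters) were left out, leaving 13484 and 13504, with all 5 members in both. The 7 group means were fitted to 12 libraries with limma 3.58.1 (R 4.3.3) and a variance trend (two-sided, 5 residual degrees of freedom), and p-values were adjusted by Benjamini and Hochberg over all regions, at 0.05, in each of 9 body and 4 promoter comparisons. Python 3.11.15 with pandas 2.3.3 and scipy 1.17.1 did the rest.

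Members and the 15 gene lists were chosen with earlier results of these data known. Named genes were the members, the 3 most similar genes of each (1 of them is not reported here, and none for Tcf21, whose body has too few reads), and up to 4 genes per list with the smallest p among those called between heart and liver; Pecam1 and Pdgfra were named after their values were seen. Alternatives were another pseudocount, no filter, median centring, a replicate block, a fit of only the compared groups, and leaving out each library in turn.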

Additional observations from a re-analysis of the deposited data

How the results depend on the processing

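Of 59 member results 15 were called, all over gene bodies. Over 225 alternatives of these, 155 kept direction and call, 70 lost the call and 0 reversed. Among the results not called, 20 alternatives gave a call, each named with its result except Erg in P1 heart against ESC without W8 heart replicate 1 (limma, adjusted p = 0.0423) and the Tcf21 promoter in P1 liver against ESC without W8 heart replicate 1 (0.0427) and with only the compared groups (0.0393).

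The counts of regions past the threshold moved by over 1.5 times as follows; the causes were not tested. With the smaller pseudocount, bodies gave 164 calls in P1 heart against P1 liver (307 as reported) and 1 in W8 heart against E14 heart (0), and promoters 5 and 7 in P1 heart and P1 liver against ESC (10 and 22). Without a filter the last count was 44. Median centring gave 147 for P1 heart against P1 liver, 773 for W8 liver against P1 liver (1327) and 1641 for W8 liver against E14 liver (2795), and for promoters 3 in W8 heart against W8 liver (1) and 5 and 2 in P1 heart and P1 liver against ESC. The fit of only the compared groups gave 0 calls between heart and liver at P1 and at W8 and in W8 heart against P1 heart, 3372 in P1 liver against ESC (2081), 3446 in W8 liver against P1 liver and 8776 in W8 liver against E14 liver, and for promoters 0 in both tissue contrasts and in P1 heart against ESC and 1614 in P1 liver against ESC. The replicate numbers did not pair the samples: in 10 pairs of groups the correlation of replicate differences was -0.01 to 0.04. A replicate block gave 5 calls in P1 heart against P1 liver, 0 in W8 heart against P1 heart, 1 in the interaction and 2 for promoters in W8 heart against W8 liver.

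Leaving out each library in turn gave, for bodies, 0 to 3021 calls in P1 heart against P1 liver, 0 to 6255 in W8 heart against W8 liver (4151), 0 to 4468 and 0 to 4540 in P1 heart and P1 liver against ESC (1713 and 2081), 0 to 5157 in W8 heart against P1 heart (2), 0 to 3358 in W8 liver against P1 liver, 0 to 3615 in W8 heart against E14 heart, 0 to 5630 in W8 liver against E14 liver and 0 to 3929 in the interaction (2). For promoters it gave 0 to 90 and 0 to 5312 in the tissue contrasts at P1 and W8, and 1 to 771 and 0 to 2108 in P1 heart and P1 liver against ESC. A group left with 1 library was assumed to vary like the others.

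No called member reversed. Centring reversed uncalled differences of Dcn in P1 heart against P1 liver (0.12), Ngfr and Erg in W8 heart against P1 heart (0.15 and 0.027) and, for promoters, Ngfr in P1 heart against P1 liver (0.0092) and Dcn in P1 liver against ESC (-0.29). Leaving out 1 library gave both signs for the bodies of Erg in P1 heart against P1 liver (-0.073 to 0.21) and Ngfr in W8 heart against P1 heart (-0.35 to 0.0045). For promoters it did so for Pdgfrb (-0.74 to 1.96), Ngfr (-1.57 to 0.83) and Erg (-2.22 to 1.44) in P1 heart against P1 liver, and for Dcn in P1 liver against ESC (-0.28 to 0.64). In W8 heart against W8 liver it did so for the promoters of Pdgfrb (-3.13 to 0.38), Dcn (-2.07 to 0.96), Tcf21 (-1.27 to 0.26), Ngfr (-2.0 to 0.64) and Erg (-1.98 to 1.20). Depth limits Tcf21 bodies and all promoters.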
